A study of Mus musculus with 12 samples.

Results

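The genes described here are Myc, the D cyclins (Ccnd1, Ccnd2, Ccnd3), their kinases (Cdk4, Cdk6) and the inhibitors of those kinases (Cdkn1a, Cdkn1b, Cdkn1c, Cdkn2a). These 10 genes were looked up by symbol in the unnormalized array table, which holds 18138 gene symbols, and 9 of them were found there. Their RNA was read in tumours of the ileum from APCmin mice. These animals have 1 truncated copy of Apc, a tumour suppressor gene, and grow adenomas along the intestine. Both groups were of strain FVB/N and 3 to 4 months old. The control group, FVBN/APCmin, held 6 tumour samples (arrays 1 to 6), and the group iPGC-1β/APCmin held 6 more (arrays 7 to 12), with 1 Illumina bead array for each. As background, the name iPGC-1β is used for mice that overexpress PGC-1β, a coactivator of mitochondrial genes, in the intestine. The labels give neither the construct, nor the promoter that drives it, nor whether each tumour is from an animal of its own. The p-values therefore measure only the spread between these samples.

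Cells enter division when a D cyclin binds CDK4 or CDK6 and the pair phosphorylates the retinoblastoma protein, which releases E2F factors that switch on genes of DNA synthesis. Myc is a transcription factor of growth that binds DNA with its partner Max, and CDK inhibitors hold the cyclin kinases back. Loss of Apc leaves beta-catenin active, and in the mouse gut Myc is needed for much of what follows in crypts. Ccnd1 and Ccnd2 are often named among the targets of this pathway or of Myc.

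Of the 10 genes, 9 had a probe under their symbol, 19 probes in all, and Cdk4 was not matched to any probe. A probe was kept where its detection p-value, measured against the negative controls of the array, was below 0.05 on at least 4 of the 12 arrays. This left 13 probes and 7 genes to test, since no probe of Cdk6 or Cdkn1b was kept. Levels are background-corrected, quantile-normalised log2 intensities, and differences are iPGC-1β/APCmin minus FVBN/APCmin. A level of one probe says nothing of another gene's level, so genes are compared only by their differences. In bulk tumour RNA, fewer cells of a type and less RNA per cell cannot be told apart.

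Median raw intensity ran from 139.3 to 170.5 over the 12 arrays, and 12858 to 14445 of the 25697 probes were detected. Of 16 epithelial markers on the array, 15 were detected on all 12 arrays and Fabp2 on none. Of the 15 tested, 12 were lower in iPGC-1β/APCmin and 3 higher, with a median difference of -0.31. None passed a limma adjusted p below 0.05, and 6 had an unadjusted limma p below 0.05, where 23.3% of all genes did. The probe for Ppargc1b, which encodes PGC-1β, was not higher in iPGC-1β/APCmin (difference -0.55, SE 0.30, limma adjusted p = 0.296), and all 6 of those arrays lay below the FVBN/APCmin mean. Whether this probe reads the construct is not known from the labels. The group of each array, and so every direction given here, rests on the labels, which Ppargc1b does not bear out. The correlation of array 7 with FVBN/APCmin arrays 1 to 5, over all tested genes, was 0.952 to 0.971, against 0.852 to 0.892 with the other arrays of its own group. Arrays 6 and 7 also stood apart from their groups in lymphocyte markers. Over 19 tested markers of T and NK cells and 16 of B and plasma cells, the mean centred log2 level was 1.35 to 1.61 on arrays 1 to 5 and -2.03 to -1.12 on arrays 8 to 12, against -0.83 on array 6 and 1.72 on array 7. Of the markers on the array, 9 of 21 for T and NK cells and 4 of 17 for B and plasma cells were detected on all 12 arrays, and Cd8a, Gzmb and Pax5 on none. Results are therefore given with and without these arrays. The part of lymphocytes in the differences was not tested. Their level followed the group on all arrays but 6 and 7. With it held in the fit, 3 genes passed higher and 2 lower over all genes tested. A call lost in that fit therefore says little about a single gene.

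None of the 7 genes passed the limma threshold of an adjusted p below 0.05, which 378 of 10967 genes tested passed (3.45%, with 2.22% higher and 1.23% lower). The groups overlapped for all 7, where they did not for 2.82% of all genes (0.884% lower). The largest differences were those of Cdkn1c, at 2.10, and Ccnd2, at -1.18, and both narrowly missed it. At an unadjusted p below 0.05 these were 2 of the 7, where 23.3% of all genes lay. Without arrays 6 and 7 both passed, Cdkn1c higher and Ccnd2 lower, where 19.9% of all genes did (9.63% higher and 10.3% lower). Arrays 6 and 7 were singled out with the values known, so passing without them is no added evidence for either gene.

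**Figure D1:**
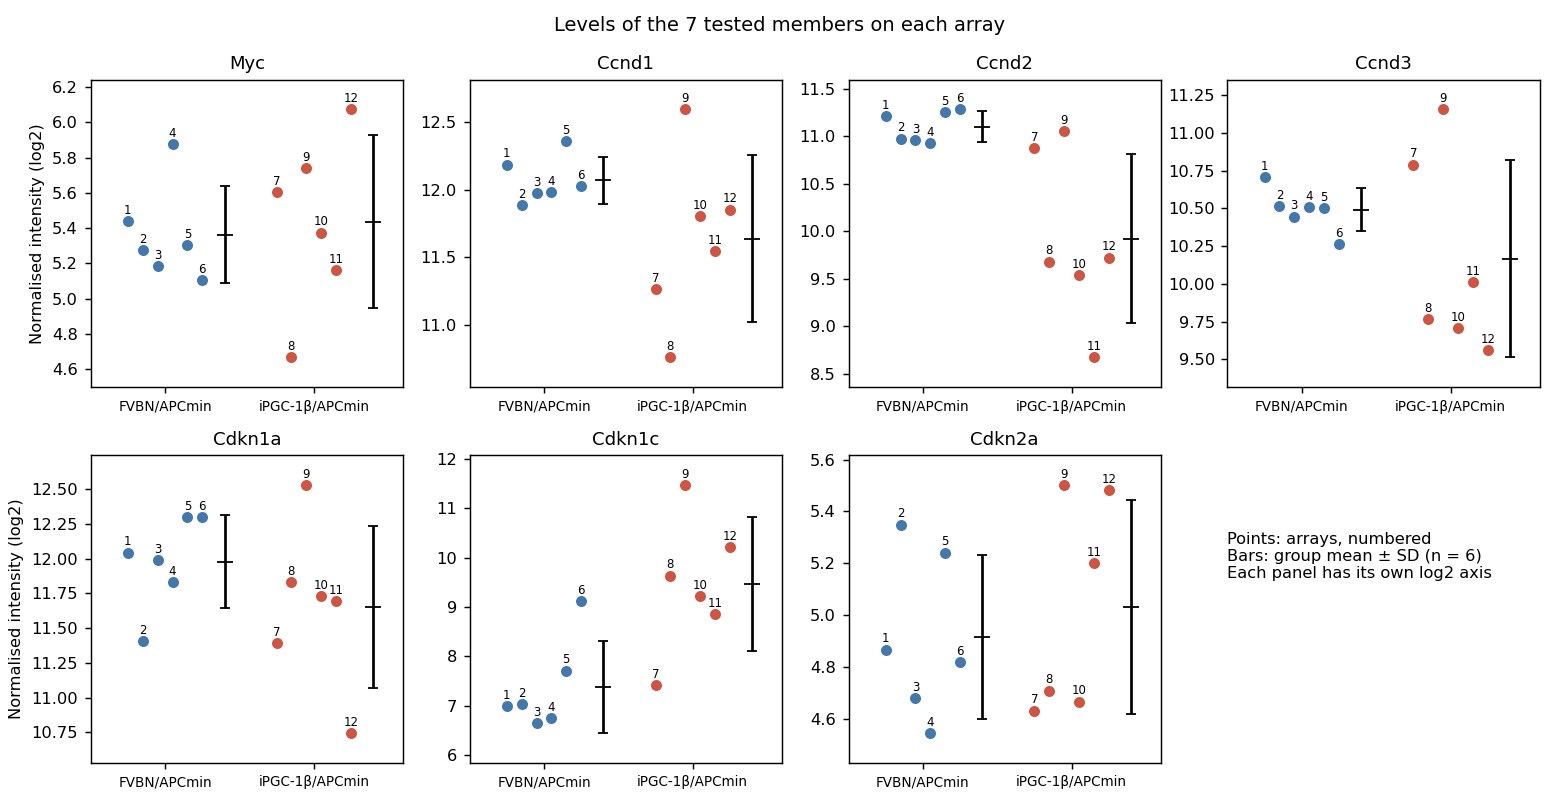
Normalised log2 intensity of the probe used for each of the 7 tested genes on each array (points, numbered), with the mean ± SD of each group (n = 6) and a separate axis for each gene. Ccnd2 was near the control level on arrays 7 and 9 and well under it on the other 4 iPGC-1β/APCmin arrays, and Cdkn1c was high on array 6 and low on array 7 for their groups.

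Myc stayed close to background. Its brighter probe was detected on 9 of the 12 arrays, 5 of FVBN/APCmin and 4 of the other group. The log2 level ran from 5.10 to 5.88 with a median of 5.29 in FVBN/APCmin, and from 4.67 to 6.07 with a median of 5.49 in iPGC-1β/APCmin. The groups overlapped, with the highest value on array 12 and the lowest on array 8, both iPGC-1β/APCmin. The difference was 0.07 (SE 0.23, 95% confidence interval -0.41 to 0.56; limma adjusted p = 0.879), and it was -0.01 without arrays 6 and 7. The other Myc probe was detected on no array.

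Ccnd1, the D cyclin most often tied to intestinal tumours, was read by 3 probes, each detected on all 12 arrays. On the brightest, ILMN_1221503, the log2 level ran from 11.89 to 12.36 with a median of 12.01 in FVBN/APCmin and from 10.76 to 12.59 with a median of 11.68 in iPGC-1β/APCmin. The groups overlapped because array 9 held the highest value of all, while arrays 7 and 8 held the lowest. The difference was -0.43 (SE 0.25, interval -0.96 to 0.10; limma adjusted p = 0.312). Probe ILMN_2601471 gave nearly the same difference, -0.45 (SE 0.25, limma adjusted p = 0.306).

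The third Ccnd1 probe, ILMN_2669793, gave a larger one. Its log2 level ran from 9.44 to 10.05 with a median of 9.79 in FVBN/APCmin and from 6.94 to 9.29 with a median of 8.95 in iPGC-1β/APCmin. All 6 iPGC-1β/APCmin arrays lay under all 6 control arrays. Over all kept probes, the groups did not overlap for 2.67% in either direction. The difference was -1.32 (SE 0.36, 2.50-fold lower; limma adjusted p = 0.0599 over all kept probes). The difference between this probe and ILMN_1221503 within an array moved by 0.89 between the groups (exact two-sided permutation p = 0.0173, 0.107 adjusted over 9 probe pairs), so after adjustment the probes were not shown to differ. This comparison was added after the values were seen. The sources used here do not say which transcripts each probe reads.

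**Figure D2:**
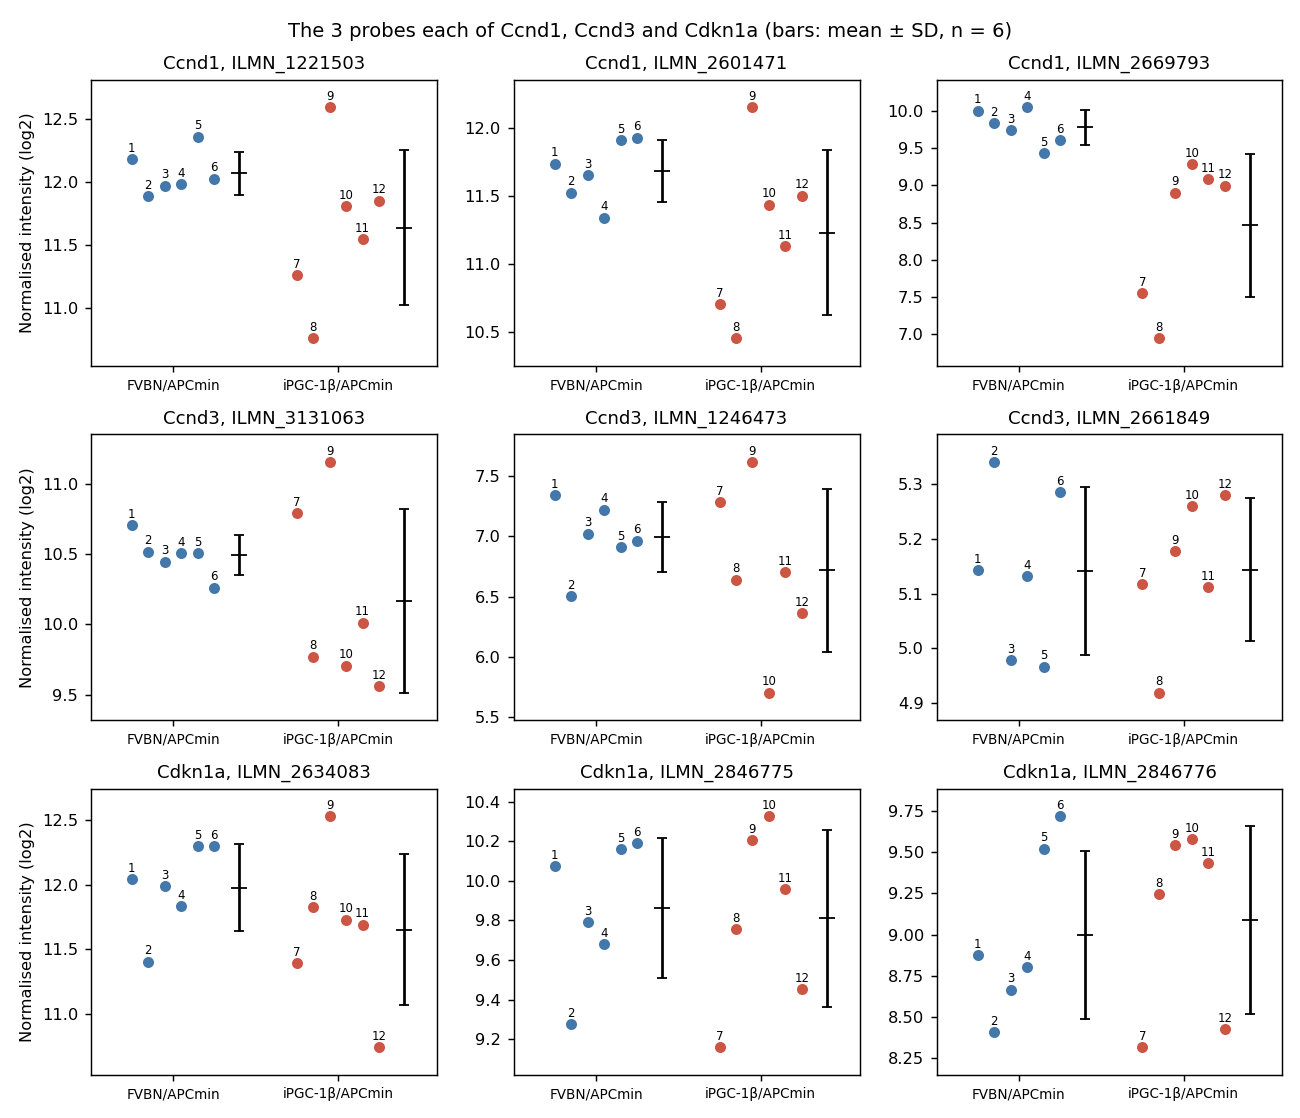
Normalised log2 intensity on each array (points, numbered) for the 3 probes each of Ccnd1, Ccnd3 and Cdkn1a, ordered in each row from the brightest to the dimmest, with the group mean ± SD (n = 6). On ILMN_2669793 of Ccnd1 the groups do not overlap, and on the other 8 probes they do.

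Ccnd2 encodes the D cyclin prominent in B cells and in granulosa cells of the ovary. Its single probe ran from 10.93 to 11.28 with a median of 11.09 in FVBN/APCmin, a spread of 0.16 (SD). In iPGC-1β/APCmin it ran from 8.67 to 11.05 with a median of 9.70 and an SD of 0.89. Arrays 7 and 9, at 10.87 and 11.05, sat beside the controls, and arrays 8, 10, 11 and 12, at 9.68, 9.54, 8.67 and 9.72, lay far under them.

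The Ccnd2 difference was -1.18 (SE 0.33, 2.26-fold lower, interval 1.38 to 3.71; limma adjusted p = 0.0622; exact permutation p = 0.013), and all 6 iPGC-1β/APCmin arrays were below the FVBN/APCmin mean. It passed without array 7 (-1.37, limma adjusted p = 0.0108), without array 9 (-1.40, limma adjusted p = 0.0222) and without arrays 6 and 7 together (-1.33, limma adjusted p = 0.0148). Arrays 7 and 9 held the highest values of their group, so leaving either out had to widen the difference. These passes are therefore no added evidence for Ccnd2. The lymphocyte level was high on arrays 1 to 5 and 7, where Ccnd2 ran from 10.87 to 11.25. It was low on arrays 8, 10, 11 and 12, where Ccnd2 ran from 8.67 to 9.72, and low on arrays 6 and 9, where Ccnd2 was 11.28 and 11.05. With the lymphocyte level held in the fit the difference was -0.91 (SE 0.46, limma adjusted p = 0.516).

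Ccnd3, the D cyclin that developing lymphocytes depend on in mice, ran from 10.26 to 10.71 with a median of 10.51 in FVBN/APCmin on its brightest probe. In iPGC-1β/APCmin it ran from 9.56 to 11.16 with a median of 9.89. Arrays 7 and 9 lay above every control array and the other 4 below every one. The difference was -0.32 (SE 0.26, interval -0.87 to 0.22; limma adjusted p = 0.477), and 0.01 with the lymphocyte level held in the fit. Of its other kept probes, ILMN_1246473 had a difference of -0.28 and the dim ILMN_2661849, detected on 5 arrays, one of 0.00.

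On the probes used, the D cyclins did not all shift alike. Within an array, the log2 difference Ccnd2 minus Ccnd3 averaged 0.61 ± 0.23 in FVBN/APCmin against -0.24 ± 0.55 in iPGC-1β/APCmin (SD, n = 6 each). It shifted by -0.85, with no overlap between the groups (exact two-sided permutation p = 0.00216, the smallest that all relabelings of 12 arrays can give, and 0.00866 adjusted over 4 gene pairs). Without arrays 6 and 7 the shift was -0.84 (exact permutation, adjusted p = 0.0159). Holding the lymphocyte level in the fit gave -0.92, with no test. It passed in all 12 fits that left out 1 array, at -0.93 to -0.63. The share of other gene pairs with no overlap was not computed. With ILMN_1246473, the other Ccnd3 probe detected on all 12 arrays, the groups overlapped. On these probes Ccnd2 and Ccnd3 read 9.54 and 5.70 on array 10, against 10.93 and 7.22 on control array 4. Ccnd1 minus Ccnd2 shifted by 0.75 (exact permutation p = 0.0801, adjusted 0.107), and by 0.97 (exact permutation, adjusted p = 0.0212) without arrays 6 and 7. Array 7 held the lowest Ccnd1 minus Ccnd2 value of its group, so leaving it out had to widen the shift. That pass is therefore no added evidence for this pair. Ccnd1 minus Ccnd3 shifted by -0.11 (exact permutation p = 0.732), and by 0.13 without arrays 6 and 7. Such a shift shows unequal change and not that either gene was steady. Both pairs with Ccnd1 used its brightest probe, which had a difference of -0.43. On ILMN_2669793 the Ccnd1 difference was -1.32, near the -1.18 of Ccnd2. Pairs with that probe were not tested, so the Ccnd1 shifts hold for the brightest probe only.

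Of the kinases, Cdk6 had 1 probe, detected on array 4 of FVBN/APCmin and array 7 of iPGC-1β/APCmin. Its log2 level stayed between 4.66 and 5.15 on all 12 arrays, with no test. No kinase of the D cyclins was therefore tested.

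Cdkn1a encodes p21, the inhibitor that p53 induces after DNA damage and that Myc represses. The RefSeq promoter table (GRCm38.p6) holds windows at a pair of start sites for it, both on chromosome 17, plus strand. They are shown because p53 targets are described with Cdkn1a further on. Each is the 250 bases before the start, and capitals mark matches to a pair of CATG cores set 6 bases apart, the core letters of adjoining p53 half-sites, with the bases between them, and to GGGCGG, the GC box of Sp1-type factors, searched on both strands.
Cdkn1a, chr17:29090729-29090978: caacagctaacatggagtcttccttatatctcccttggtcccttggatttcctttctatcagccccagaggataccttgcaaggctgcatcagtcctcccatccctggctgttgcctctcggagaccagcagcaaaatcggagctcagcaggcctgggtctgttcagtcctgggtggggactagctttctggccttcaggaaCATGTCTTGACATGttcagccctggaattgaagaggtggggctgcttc
Cdkn1a, chr17:29093519-29093768: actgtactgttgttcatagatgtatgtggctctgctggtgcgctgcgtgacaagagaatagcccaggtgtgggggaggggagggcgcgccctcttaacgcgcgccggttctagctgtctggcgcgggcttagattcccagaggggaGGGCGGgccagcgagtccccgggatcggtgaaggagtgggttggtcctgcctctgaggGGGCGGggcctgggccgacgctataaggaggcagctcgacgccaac

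The p53 core letters occurred at bases -48 to -35 of the first window and in 0.49% of the 32851 windows in the table. The GC box occurred 2 times in the second window and in 32.7% of windows. The E-box CACGTG, the motif of Myc and Max, was in neither. It was found in the windows of Cdk4 (4 matches) and Cdk6 (1 match), and in 6.02% of all windows. Windows were found for 6 of the 10 genes. A match is a string of letters and was not measured as a binding site.

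The brightest Cdkn1a probe ran from 11.41 to 12.30 with a median of 12.02 in FVBN/APCmin and from 10.74 to 12.53 with a median of 11.71 in iPGC-1β/APCmin. The groups overlapped across most of their range, with array 12 lowest and array 9 highest. The difference was -0.33 (SE 0.26, interval -0.88 to 0.22; limma adjusted p = 0.476). The other 2 kept probes, also detected on all 12 arrays, had differences of -0.05 (SE 0.23) and 0.09 (SE 0.29).

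Cdkn1b, which encodes p27, the inhibitor that falls as resting cells enter the cycle, was not measured above background. Its 3 probes were detected on 0, 0 and 1 of the 12 arrays, and their log2 levels stayed between 4.28 and 5.34. Cdkn2a encodes p16, which binds CDK4 and CDK6, and the p53 activator p19Arf, from overlapping reading frames. Its kept probe was detected on arrays 2, 5, 9 and 12 only. The log2 level ran from 4.55 to 5.35 with a median of 4.84 in FVBN/APCmin and from 4.63 to 5.50 with a median of 4.95 in iPGC-1β/APCmin, a difference of 0.11 (SE 0.21, interval -0.33 to 0.56; limma adjusted p = 0.785). The second Cdkn2a probe was detected on arrays 9 and 12, at 5.88 and 6.48, and on no control array.

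Cdkn1c encodes p57, an imprinted inhibitor expressed from the maternal copy. It had the largest difference of the 7 genes, 2.10 (SE 0.59, 4.28-fold higher, interval 1.79 to 10.2; limma adjusted p = 0.0602; exact permutation p = 0.013). Its log2 level ran from 6.64 to 9.11 with a median of 7.01 in FVBN/APCmin and from 7.41 to 11.47 with a median of 9.43 in iPGC-1β/APCmin. All 6 iPGC-1β/APCmin arrays were above the FVBN/APCmin mean of 7.37.

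The overlap in Cdkn1c came from arrays 6 and 7. Arrays 1 to 5 read 6.99, 7.03, 6.64, 6.75 and 7.71, and arrays 8 to 12 read 9.64, 11.47, 9.22, 8.85 and 10.22. Array 6, labelled FVBN/APCmin, read 9.11, and array 7, labelled iPGC-1β/APCmin, read 7.41. Cdkn1c passed without array 6 (2.45, limma adjusted p = 0.0264), without array 7 (2.51, limma adjusted p = 0.0056) and without both (2.86, limma adjusted p = 0.000402). Array 6 held the highest control value and array 7 the lowest of its group, so leaving them out had to widen the difference. These passes are therefore no added evidence for Cdkn1c.

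With the lymphocyte level held in the fit the Cdkn1c difference was 0.32 (SE 0.47, limma adjusted p = 0.904), and with the level of smooth muscle and fibroblast markers it was 1.88 (SE 0.33, limma adjusted p = 0.0113). That stromal level ranged from -0.42 to 0.61 in FVBN/APCmin and from -0.55 to 0.54 in iPGC-1β/APCmin. The parts of these cells in the result were not tested. Within an array, Cdkn1a minus Cdkn1c shifted by -2.42, from 4.61 ± 0.78 to 2.18 ± 1.25 (SD, n = 6 each; exact two-sided permutation p = 0.00433, adjusted 0.00866), so on the probes used these inhibitors did not shift alike. The groups overlapped in this difference, and the share of other gene pairs with such a shift was not computed. With the lymphocyte level held in the fit the shift of Cdkn1a minus Cdkn1c was -0.997, given with no test.

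**Figure D3:**
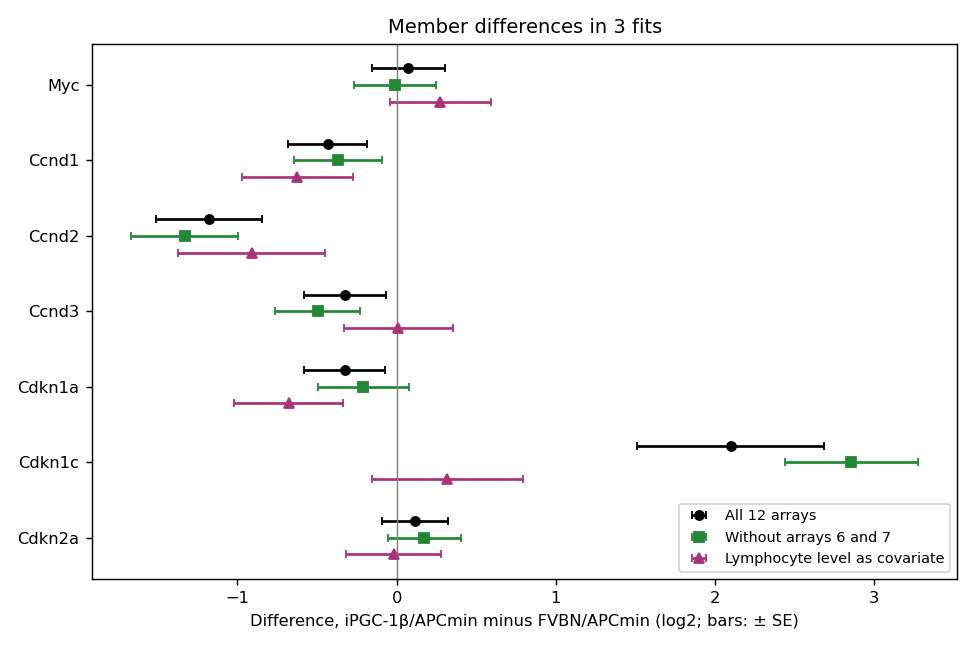
Difference between the groups on the log2 scale (± SE) for the 7 tested genes, with all 12 arrays, without arrays 6 and 7, and with the lymphocyte level held as covariate. Cdkn1c lies at 2.10, 2.86 and 0.32 and Ccnd2 at -1.18, -1.33 and -0.91, while the other genes stay within 0.68 of 0 in all of them.

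The genes whose pattern over the 12 arrays was most like each tested one are given as a description. Nearest to Cdkn1c were Fzd6, a receptor for Wnt ligands (Pearson r = 0.977), Apcdd1, a Wnt inhibitor (r = 0.969), and Tmtc4 (r = 0.968). Nearest to Ccnd2 were Anapc5, a subunit of the anaphase-promoting complex (r = 0.952), and the RNA-binding protein genes G3bp2 (r = 0.926) and Hnrnpc (r = 0.923). For Ccnd1 they were the chemokine gene Ccl4 (r = 0.902), Cd3eap (r = 0.885) and Rangap1 (r = 0.878). For Ccnd3 they were the spindle gene Dlgap5 (r = 0.909), the glucose transporter gene Slc2a3 (r = 0.904) and the splicing gene Cdc5l (r = 0.904). Cdkn1a was nearest to Crim1 (r = 0.915), Eps8l1 (r = 0.878) and Mtap1b (r = 0.866). The dim probes of Myc and Cdkn2a gave lower values, at most 0.861 (Ppat, an enzyme of purine synthesis; then H1fx and Ilf2) and 0.837 (Copz2; then Cxcl16 and Npc2). These arrays share group, cell makeup and array processing.

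The rest of the pathway was read from 7 lists, against a median difference of -0.01, 3.45% passing and 23.3% at an unadjusted p below 0.05 over all genes. The Myc dimer network, the partners and rivals of Myc, had 14 genes tested and 0 past the limma threshold, also 0 at an unadjusted p below 0.05, with a median of -0.07. Those with the smallest p were Wdr5, a chromatin partner of Myc (0.32), the glucose-sensing factor Mlxipl (-0.46), the Myc antagonist Mxi1 (-0.34) and Max itself (-0.60, SE 0.41).

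Myc targets of growth, mostly genes of ribosome assembly and nucleotide synthesis, had 29 genes tested and 0 past the limma threshold (3 at an unadjusted p below 0.05), with 20 differences under 0 and a median of -0.10. The smallest p belonged to the ribosome assembly gene Bop1 (-0.67, SE 0.22, limma adjusted p = 0.0897). Its highest iPGC-1β/APCmin array lay under the lowest control array, as for 0.884% of all genes. After Bop1 came the growth regulator Pa2g4 (-0.63), the CDK-activating phosphatase Cdc25a (-0.46) and the transferrin receptor Tfrc (0.46). Without arrays 6 and 7, where 19.9% of all genes passed, Bop1 was the 1 of these 29 to pass.

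Downstream of the D cyclins, 1 of 19 genes of the later cyclins, E2F factors and retinoblastoma family passed, with a median of -0.15. At an unadjusted limma p below 0.05 there were 2 of the 19, where 23.3% of all genes lay. E2f2, an activating E2F factor, fell by 1.33 (SE 0.26, limma adjusted p = 0.0173), from 10.72 ± 0.28 to 9.40 ± 0.63 (SD, n = 6 each). It ran from 10.38 to 11.15 in the controls and from 8.66 to 10.46 in iPGC-1β/APCmin, all 6 arrays of which lay below the control mean. The call was lost without array 3 (-1.24, limma adjusted p = 0.0511) and when the lymphocyte level was a covariate (-0.92, limma adjusted p = 0.373). The pocket protein gene Rbl1 had a difference of -0.74 (SE 0.22, limma adjusted p = 0.0702), Tfdp1, the DNA-binding partner of E2F, one of -0.42 and E2f1 one of -0.38. Of the 19, E2f2 and Rbl1 passed without arrays 6 and 7 (2, against 19.9% of all genes). Dividing cell markers, 16 tested, had 0 past the limma threshold (2 at an unadjusted p below 0.05) and a median of -0.30. Their mean level ranged from -0.51 to 0.56 in FVBN/APCmin and from -1.11 to 0.52 in iPGC-1β/APCmin.

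Other brakes of the cell cycle had 16 genes tested, 0 past the limma threshold (1 at an unadjusted p below 0.05) and a median of 0.13. The antiproliferative Btg1 had a difference of -0.76 (SE 0.32, limma adjusted p = 0.167), the CDK1-inhibiting kinase Pkmyt1 -0.41, Cdkn2b, which encodes the CDK4 and CDK6 inhibitor p15, -0.37 and the stress gene Gadd45g 0.46. Of the 16, Btg1 passed without arrays 6 and 7 (1, against 19.9% of all genes).

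Of p53 and its targets, 24 were tested and 1 passed in each direction, with a median of -0.02. At an unadjusted limma p below 0.05 there were 4 of the 24, where 23.3% of all genes lay. Fas, a death receptor that lymphocytes also carry, fell by 1.45 (SE 0.32, limma adjusted p = 0.0288), from 9.44 ± 0.36 to 7.99 ± 0.77 (SD, n = 6 each). Plk2, a kinase of the polo family, rose by 1.44 (SE 0.35, limma adjusted p = 0.0406), from 6.04 ± 0.32 to 7.47 ± 0.87 (SD, n = 6 each). With the lymphocyte level held in the fit neither passed, at -0.54 for Fas and 0.67 for Plk2 (limma adjusted p of 0.55 and 0.599). Among the 12 fits that left out 1 array, at -1.70 to -1.24, Fas passed only without array 6, 7, 8 or 9. Plk2, at 1.20 to 1.64, passed only without array 6, 7 or 8. The Plk2 call was also lost at an offset of 50 (1.11), with no background correction (0.73), with a 75th percentile shift, with no filter and in the authors' deposited table (0.73), at limma adjusted p of 0.0507 to 0.0667. Trp53i11 had a difference of -0.79 and Phlda3, an inhibitor of Akt, one of 1.16. Without arrays 6 and 7, 2 of the 24 passed higher and 4 lower, where 9.63% and 10.3% of all genes did, so the count is near that of all genes.

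Genes that turn over Myc, cyclins and inhibitors had 20 tested, 0 past the limma threshold (5 at an unadjusted p below 0.05), 16 differences above 0 and a median of 0.22. Their mean level was -0.26 to -0.0031 on the control arrays and 0.07 to 0.27 on the iPGC-1β/APCmin arrays, so on this measure the groups did not overlap. In every other pathway list they did. How often means of other gene sets fail to overlap was not computed, so no weight is put on it. Cdc34, the ubiquitin-conjugating enzyme that serves the SCF ligase in destroying p27, had a difference of 0.66 (SE 0.17, limma adjusted p = 0.0504). Usp2, a deubiquitinase that spares cyclin D1, had one of 1.25 (SE 0.34, limma adjusted p = 0.0583), the ligase scaffold gene Cul4a one of 0.40 and Gsk3a, a kinase of the family that marks Myc and cyclin D1 for destruction, one of 0.66. Of the 20, Cdc34, Usp2 and Cul4a passed without arrays 6 and 7 (3, against 19.9% of all genes).

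Wnt target genes, which Apc loss switches on, had the highest median of the 7 lists. Of 19 tested, 0 passed the limma threshold (8 at an unadjusted p below 0.05), 17 differences were above 0 and the median was 0.59. The Wnt inhibitor Notum had a difference of 3.13 (SE 0.91, limma adjusted p = 0.0677), Apcdd1 1.64, the progenitor factor Sox9 1.47 and the transcription factor Sp5 1.56. The mean level was -0.68 to -0.46 on arrays 1 to 5, 0.20 on array 6, -0.74 on array 7 and -0.11 to 1.64 on arrays 8 to 12. Without arrays 6 and 7, 10 of the 19 passed, 9 higher and 1 lower, where 9.63% of all genes passed higher and 10.3% lower. Array 6 held the highest control level and array 7 the lowest of its group, so leaving them out had to widen the difference in level. The count without them is therefore no added evidence for a rise of this list. The part of this level in the Cdkn1c and Ccnd2 values was not tested.

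**Figure D4:**
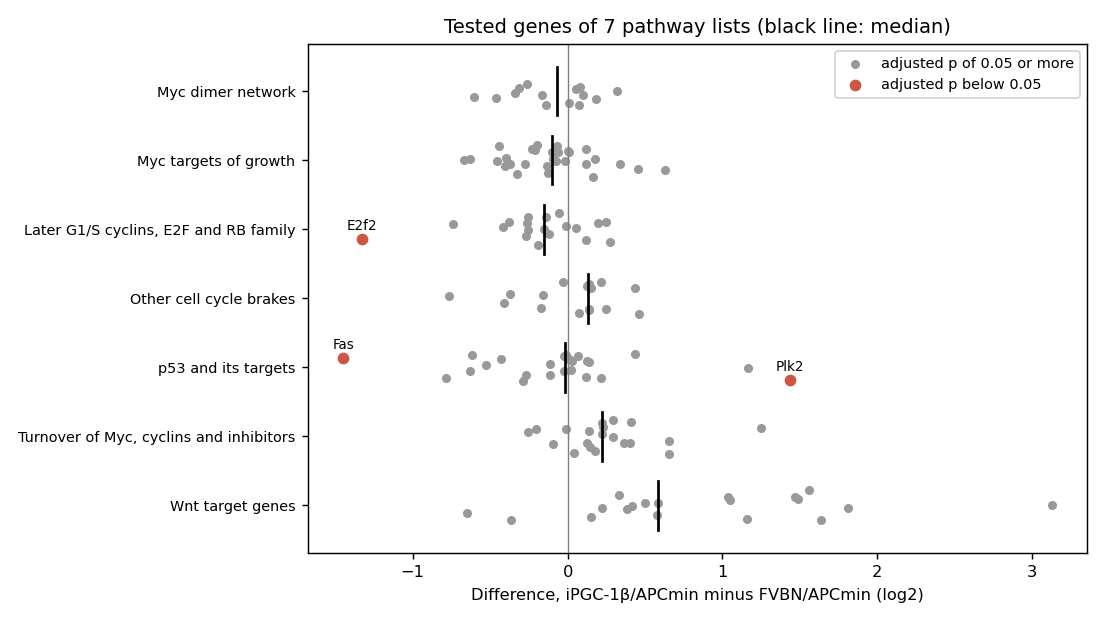
Difference between the groups on the log2 scale for each tested gene of the 7 pathway lists, 1 point per gene, with the median of each list as a black line and genes past the limma threshold in red with their names. E2f2 and Fas lie under 0 and Plk2 above it, and the list medians run from -0.15 to 0.59.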

How the data were processed

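Illumina bead arrays measured total RNA of 12 tumours of the ileum. The deposited unnormalized table holds an averaged bead intensity and a detection p-value (per the file headers) for each of 25697 probes and 12 arrays. A second deposited table holds linear intensity quantile-normalized by the authors, as read from its values, and was used as an alternative. The submitters' processing notes name GenomeStudio. In R 4.3.3 with limma 3.58.1, neqc estimated background through the detection p-values, and after an offset of 16 the values were quantile-normalized and put on the log2 scale. Kept probes numbered 14827, and the probe with the highest mean stood for a gene, which left 10967 genes. The groups were compared with lmFit and eBayes with an intensity trend, adjusted by Benjamini-Hochberg over all genes, and with exact permutation tests over all relabelings of the arrays. Fits were also tested on simulated data. The arrays correlated at 0.852 to 0.986 across genes, and none was counted as a repeat.

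The genes, the lists, the alternatives and the handling of arrays 6 and 7 were chosen with earlier results of these data known. The lists were written from general knowledge. Named were all 10 genes, Ppargc1b, for each pathway list the 4 genes of smallest p with any further gene past the threshold, and the 3 genes most like each tested gene, except symbols that are only locus or clone numbers. The smallest exact p is 0.00216, and the number of arrays limits the precision. Alternatives changed background correction, normalization, filter, probe choice, array weights and covariates, or left out arrays. Single-probe counts and probe pairs were added after the data were seen.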

Additional observations from a re-analysis of the deposited data

Results flagged for a closer look

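In 84 groups of 6 arrays checked, 4 had 1 array far from the others, where chance gives about 1 in 20 groups. Notum, a secreted Wnt inhibitor, read 8.61 on array 6 of FVBN/APCmin, where the next highest control array read 4.61. Cul4a read 9.85 on array 6 of FVBN/APCmin (next 9.58) and 10.35 on array 8 of iPGC-1β/APCmin (next 10.04). Cdc34 read 7.56 on array 12 of iPGC-1β/APCmin (next 7.20).

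Probes of these genes left out by the filter were detected on iPGC-1β/APCmin arrays and on no control array in 3 cases, each a single probe on a single array. How often left-out probes of other genes are detected in this way was not computed, so no weight is put on it. The second Cdkn2a probe read 5.88 on array 9 and 6.48 on array 12, against at most 4.77 on the control arrays. A Cdkn1b probe read 5.34 on array 7, with a detection p of 0.0276, against at most 5.07 on the control arrays.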

How the results depend on the processing

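No paired analysis was possible because the groups share no replicate number. The number of arrays, and for Myc, Cdkn2a, Cdk6 and Cdkn1b signal near background, limit what can be seen. Changes of background correction, normalization, filter and moderation, and the authors' table, changed no call of the 7 genes where they were tested. The filter at a detection p below 0.01 on 6 arrays left out Myc and Cdkn2a, so these have no value there. The cause of the changes below was not tested.

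Counts over all genes, 243 higher and 135 lower, became 130 and 70 with no filter, 1192 and 1211 with array weights, 3 and 2 with the lymphocyte level, 490 and 713 with the epithelial level, and 1056 and 1128 without arrays 6 and 7. Those lower became 89 with a 75th percentile shift and 288 with the smooth muscle and fibroblast level. Leaving out 1 array gave 92 (without array 3) to 848 (without array 7) higher and 35 (without array 1) to 973 (without array 7) lower.

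Of the 7 genes, 1 passed higher (Cdkn1c) and 1 lower (Ccnd2) with array weights (2.35 and -1.35) and without arrays 6 and 7 (2.86 and -1.33). Cdkn1c passed with the smooth muscle and fibroblast level (1.88) and Ccnd2 with the epithelial level (-1.61). Leaving out 1 array gave 0 to 1 in each direction, with Ccnd2 at -1.40 to -0.93 and Cdkn1c at 1.70 to 2.51 (limma adjusted p 0.0108 to 0.127 and 0.0056 to 0.137). Signs turned, with no call, for Ccnd3 (0.011) and Cdkn2a (-0.017) with the lymphocyte level, Myc (-0.28) and Cdkn2a (-0.091) with the epithelial level, Myc without arrays 6 and 7 (-0.011) and on leaving out 1 array (-0.053 to 0.23), and on other probes of Ccnd3 (0.0032) and Cdkn1a (0.091).

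On the brightest Ccnd1 probe, used for both Ccnd1 pairs, Ccnd1 minus Ccnd2 passed without arrays 6 and 7 (0.97). It ran from 0.51 to 1.01 on leaving out 1 array, passing without array 7. Array 7 held the lowest value of its group in this difference, so these passes are no added evidence. Ccnd1 minus Ccnd3 was 0.13 without arrays 6 and 7, -0.27 to 0.092 on leaving out 1 array and -0.63 with the lymphocyte level. Cdkn1a minus Cdkn1c was -0.997 with that level.

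List counts without arrays 6 and 7, where 19.9% of all genes passed, were 1 of 29 for Myc targets, 2 of 19 for later cyclins and E2F, 1 of 16 for other brakes, 6 of 24 for p53 targets, 3 of 20 for turnover and 10 of 19 for Wnt targets. These arrays were singled out with the values known, so the counts without them are no added evidence. With the lymphocyte level the list counts were 0 for later cyclins and E2F and 0 for p53 targets, and with the authors' values 1 for p53 targets and 1 for turnover. On leaving out 1 array they ran from 0 to 2, 0 to 1, 0 to 6, 0 to 2 and 0 to 8 for later cyclins and E2F, other brakes, p53 targets, turnover and Wnt targets. Plk2 was lost at an offset of 50 (1.11), with no background correction (0.73), with the 75th percentile shift, with no filter and in the authors' table (0.73; limma adjusted p 0.0507 to 0.0667 over these).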
